A study of Homo sapiens with 36 samples.

Results

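This account follows 31 target genes of p53, chosen by name, out of 45478 gene identifiers in a table of RNA sequencing counts from 2 established lines of human clear cell renal cell carcinoma, A498 and 786-O. All 31 symbols matched an identifier, and all 31 passed the filter on low counts in every comparison. Each line was sequenced as cells selected for growth in sunitinib, an inhibitor of receptor tyrosine kinases, and as parental cells. Per the labels, stable growth was reached in 2 µM of the drug by A498 and in 4 µM by 786-O. Each of these 4 cell states was treated for 24 h with avelumab, durvalumab or atezolizumab, antibodies against PD-L1, at a labelled concentration of 10 mg/mL. The 12 groups were A498 resistant, A498 parental, 786-O resistant and 786-O parental cells under each of the 3 antibodies, with 3 libraries a group and 9 a state. All groups therefore received an antibody, and untreated libraries were not analysed here. The resistant cells of each line are 1 selected population, and the parental cells had no such selection.

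The protein p53 is a transcription factor that is kept scarce by the ubiquitin ligase MDM2 and is stabilized by DNA damage and other stress. It binds response elements made of a pair of half-sites and raises genes for cell cycle arrest, apoptosis, death receptors, DNA repair and metabolism, among them MDM2 itself, which closes a feedback loop.

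Totals ran from 19994882 to 37219906 counts in the libraries labelled A498 resistant, 26160910 to 49099068 in A498 parental, 32083005 to 51966798 in 786-O resistant and 32869829 to 58122896 in parental 786-O libraries. Levels are CPM, a gene's count scaled to a fixed library total. The libraries labelled A498 resistant stood apart from their label: HIF1A, which codes for a subunit of hypoxia-inducible factor, averaged 8.99 ± 0.493 CPM in the set labelled A498 resistant, 294 ± 7.37 in A498 parental, 8.71 ± 0.424 in 786-O resistant and 9.36 ± 0.571 in parental 786-O libraries (SD, n = 9 each). The log2 CPM profile of those libraries over 20752 genes had a Pearson r of 0.9925 with 786-O resistant libraries and 0.9239 with A498 parental libraries, a description across genes that share libraries. Each cell state has a batch label of its own, so batch and cell state cannot be told apart. No label gives the 3 libraries of a group as separate cultures, and the p-values then reflect only the spread among libraries, which may be technical. Of 9 renal markers, 6 averaged at least 1 CPM in every state, among them PAX8, PAX2, VIM, KRT8 and KRT18. CA9 did so in A498 parental cells only, where 7 of the 9 did. The rest of the 9 stayed below 1 CPM on average. None of 7 leukocyte markers reached 1 CPM in any state. The 7 summed to 0.407 to 0.82 CPM in the set labelled A498 resistant, 1.07 to 1.4 in A498 parental, 0.349 to 0.783 in 786-O resistant and 0.085 to 0.33 in parental 786-O libraries. Of 4 endothelial markers, TEK passed 1 CPM, in A498 parental cells, and the 4 summed to at most 2.79 CPM in any library. The 4 fibroblast markers summed to 19.6 to 22.7 CPM in the set labelled A498 resistant, 50.2 to 61.5 in A498 parental, 9.66 to 11.4 in 786-O resistant and 5.67 to 7.8 in parental 786-O libraries. The part of these markers in the results below was not tested.

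The letters of the p53 response element were looked for near the start sites of the members. RefSeq promoter windows (GRCh38.p14), 250 bases before to 50 after a transcript start, matched 25 of the 31 symbols, all but RRM2B, GADD45A, TP53INP1, TNFRSF10B, TNFRSF10A and PHLDA3. The windows were searched for the p53 half-site consensus decamer, which is its own reverse complement, so that 1 scan reads both strands. It stood in windows of 6 of the 25 members, against 6.63% of all windows and 8.06% of all symbols. A full element, a pair of half-sites with at most 13 bases between them, stood in the window of DDB2 alone among the 25 members. It stood in 0.0285% of all windows and for 0.0366% of all symbols. A looser search allowed up to 1 mismatch in each half-site, but none at the C and G of its core. MDM2 was then added, and 1.84% of all windows and 2.28% of all symbols held such an element. The whole DDB2 and MDM2 windows are shown because they hold the element; capitals mark the half-sites, which are exact in DDB2 and hold 1 mismatch each in MDM2.
DDB2 (chr11:47214724-47215023, plus strand): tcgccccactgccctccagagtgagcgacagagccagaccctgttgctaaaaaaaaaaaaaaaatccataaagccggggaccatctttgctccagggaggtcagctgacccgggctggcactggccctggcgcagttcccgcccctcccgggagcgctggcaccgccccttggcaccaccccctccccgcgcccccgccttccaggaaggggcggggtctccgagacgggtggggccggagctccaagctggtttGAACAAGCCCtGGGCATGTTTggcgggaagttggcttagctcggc
MDM2 (chr12:68808767-68809066, plus strand): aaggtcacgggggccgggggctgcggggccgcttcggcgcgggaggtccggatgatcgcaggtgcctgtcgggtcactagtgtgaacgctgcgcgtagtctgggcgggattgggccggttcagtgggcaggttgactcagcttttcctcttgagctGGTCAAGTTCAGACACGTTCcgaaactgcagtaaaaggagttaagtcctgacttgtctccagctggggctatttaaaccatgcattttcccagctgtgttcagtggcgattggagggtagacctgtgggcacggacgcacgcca
For the other 5 members with an exact half-site, 30 bases around it are shown, with the half-site in capitals.
PLK2 (chr5:58460199-58460228, minus strand): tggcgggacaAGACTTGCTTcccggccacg
SESN1 (chr6:109009018-109009047, minus strand): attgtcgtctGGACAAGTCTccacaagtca
FAS (chr10:88991299-88991328, plus strand): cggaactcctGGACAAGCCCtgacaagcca
AEN (chr15:88621296-88621325, plus strand): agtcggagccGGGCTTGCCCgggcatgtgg
FDXR (chr17:74872986-74873015, minus strand): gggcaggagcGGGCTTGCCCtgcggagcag
The DDB2 element lies within the 50 bases after the transcript start, and the MDM2 element belongs to a start site inside the gene. A match is a description of letters and not a measured binding site.

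The 31 members together held 1948 ± 15 CPM in the set labelled A498 resistant, 3248 ± 71.1 in A498 parental, 1876 ± 24.5 in 786-O resistant and 1996 ± 51.3 in parental 786-O libraries (SD, n = 9 each). The sum in A498 parental libraries was above every library of the other states. In bulk RNA, fewer cells of a kind and less RNA per cell cannot be told apart. PLK2, a polo-like kinase, had the highest CPM of any member in each state. Per kilobase of exon, GDF15 led in A498 parental libraries at 222 CPM per kb and in those labelled A498 resistant at 94.9, and CDKN1A led in 786-O resistant and 786-O parental libraries at 81.0 and 90.4 CPM per kb. A498 parental libraries had the highest mean of the 4 states for 21 of 31 members. For 18 of them each A498 parental library lay above all 27 others. Neither count was computed over all genes. In pairs of states, A498 parental libraries did not overlap with 786-O parental libraries for 64.5% of all genes. They did not overlap with those labelled A498 resistant for 66.6% of all genes. The libraries labelled A498 resistant had the lowest mean for 14 members and the highest for 7. On the log2 scale, the mean of the libraries labelled A498 resistant lay nearest to 786-O resistant for 16 members, to 786-O parental for 11 and to A498 parental for 4 (APAF1, CCNG1, TIGAR and TRIAP1). Some were near ties, such as EDA2R, at 0.173 from 786-O parental and 0.176 from 786-O resistant. These counts use CPM without composition scaling and were not computed over all genes. With totals scaled for composition, 25 of 31 means in these libraries moved by their SD or more.

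**Figure D1:**
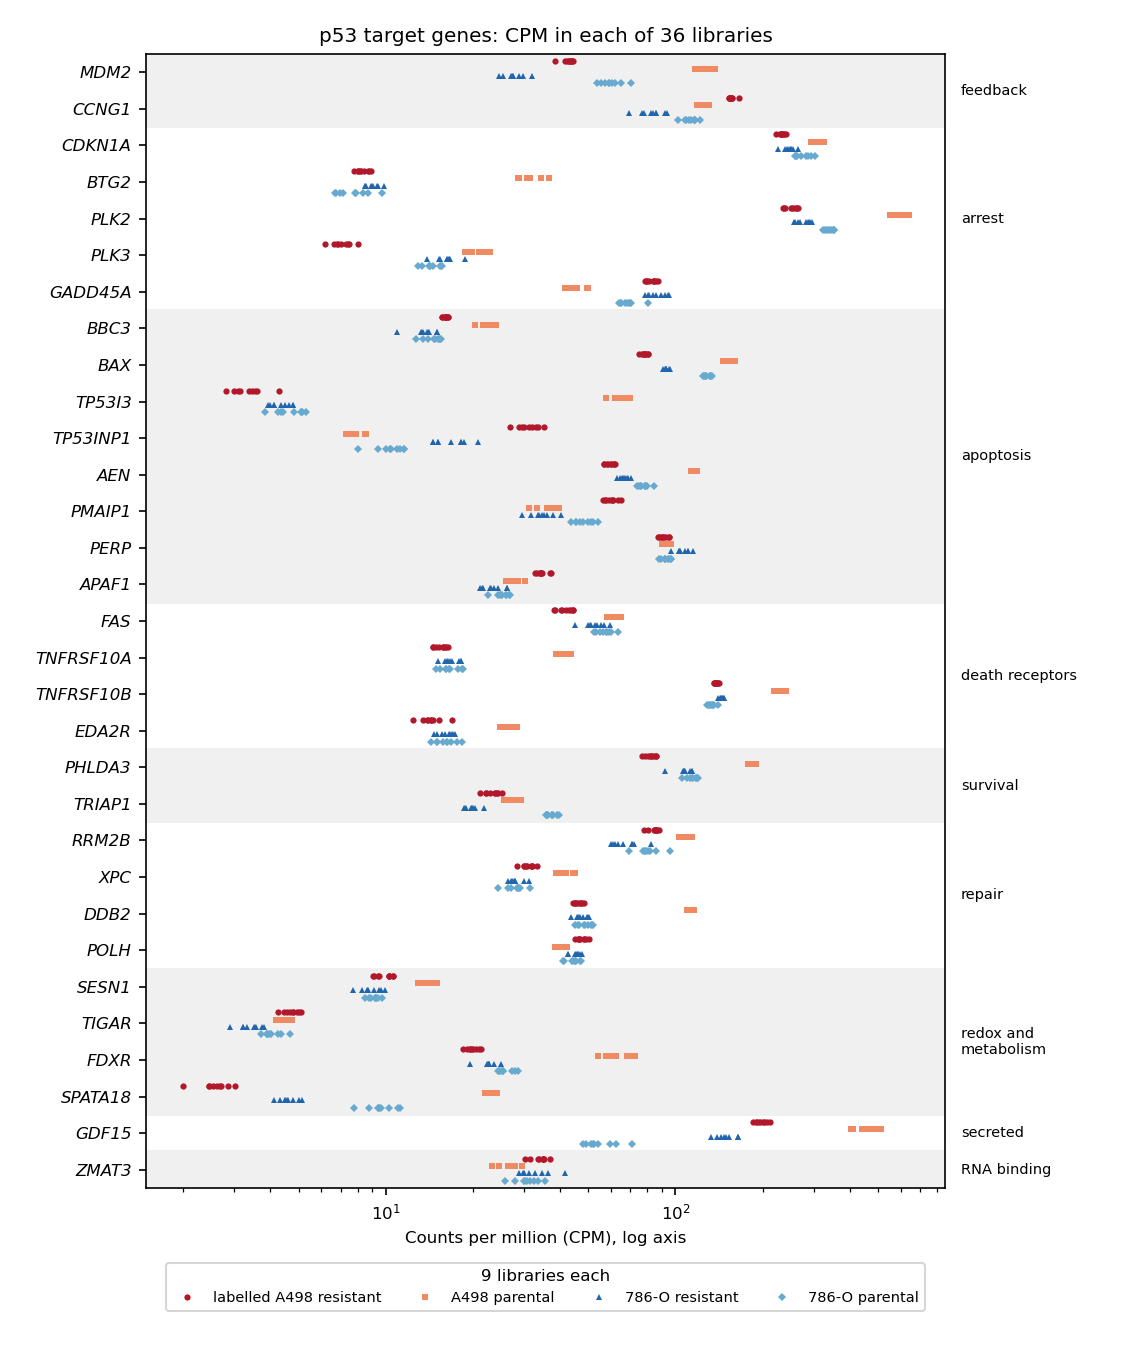
CPM of each p53 target gene (log axis) in each of the 36 libraries, by cell state, with genes grouped by role. A498 parental libraries (orange squares) stand to the right of all others for 18 members, with TP53I3 at 57.6 to 69.7 CPM against at most 5.30 CPM elsewhere. The share of all genes with that pattern was not computed.

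The design implies 4 comparisons of cell states, and each state enters 2 of them, so the comparisons share libraries and are not independent. Log2 differences were tested with edgeR's quasi-likelihood test over all genes, with Benjamini-Hochberg adjusted p under 0.05 as the threshold. Between the parental lines, 23 of 31 members were higher in A498 and 6 were lower (TP53INP1, ZMAT3, POLH, TRIAP1, PMAIP1 and GADD45A), while PERP and TIGAR did not pass. Of all 19703 genes tested, 87.2% passed, 44.3% higher and 42.9% lower, against 74.2% of members higher and 19.4% lower. At least 2-fold higher in A498 were 8 members (25.8%; 20.9% of all genes), and none was at least 2-fold lower (10.7% of all genes). The median log2 difference was 0.53 over the members and 0.01 over all genes tested. Libraries of the 2 lines did not overlap in CPM for 22 members (71%; 64.5% of all genes). With all 36 libraries in 1 fit, 21 members were higher in A498, since FAS (adjusted p = 0.478) and APAF1 (0.0541) did not pass. APAF1 also passed under no antibody alone.

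Between the resistant sets, 12 members were higher in the libraries labelled A498 resistant than in 786-O resistant libraries and 17 were lower, while ZMAT3 and POLH did not pass. DDB2, among the lower (adjusted p = 0.0429), was lost with DESeq2, RLE size factors, no composition scaling and the replicate number as a block. SESN1, among the higher (0.0283), was lost with no filter on low counts. Both were lost when some single libraries were left out. POLH passed as higher without composition scaling. The shares were 38.7% higher and 54.8% lower, and of all 19196 genes tested 69% passed, 33.8% higher and 35.2% lower. PLK3 alone among the members differed by at least 2-fold, as lower, against 2.28% of all genes lower and 3% higher by that much. Median log2 differences were -0.10 (members) and -0.02 (all genes). Libraries did not overlap for 15 members (48.4%; 32.5% of all genes).

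The libraries labelled A498 resistant were lower than A498 parental libraries for 23 members and higher for 7 (TP53INP1, ZMAT3, POLH, CCNG1, PMAIP1, GADD45A and APAF1), while TIGAR did not pass. Of all 19458 genes tested 88.2% passed, 44.2% higher and 44% lower, against 22.6% of members higher and 74.2% lower. At least 2-fold lower were 13 members (41.9%; 16.8% of all genes), and TP53INP1 alone was at least 2-fold higher (15% of all genes). The median log2 difference was -0.63 over the members and 0.01 over all genes. Libraries did not overlap for 29 members (93.5%; 66.6% of all genes).

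In 786-O, 23 members fell in resistant relative to parental cells and 5 rose (GDF15, TP53INP1, BTG2, PERP and GADD45A), while TNFRSF10B, ZMAT3 and PLK3 did not pass. Of all 19369 genes tested 83.8% passed, 43.6% higher and 40.2% lower, against 16.1% of members higher and 74.2% lower. Without scaling for library composition, which moved the median of all genes by 0.11 on the log2 scale, 7 members rose and 15 fell. The signs of POLH, TNFRSF10A, XPC and ZMAT3 turned, and EDA2R came to 0.0. BBC3, DDB2, SESN1 and TP53I3 then no longer passed, while PLK3 and TNFRSF10B did, as higher. Only MDM2, SPATA18 and TRIAP1 fell at least 2-fold among the members (9.68%; 5.67% of all genes), and GDF15 rose by as much (14.5% of all genes). The median log2 difference was -0.20 over the members and 0.03 over all genes. Libraries did not overlap for 10 members (32.3%; 53.3% of all genes).

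**Figure D2:**
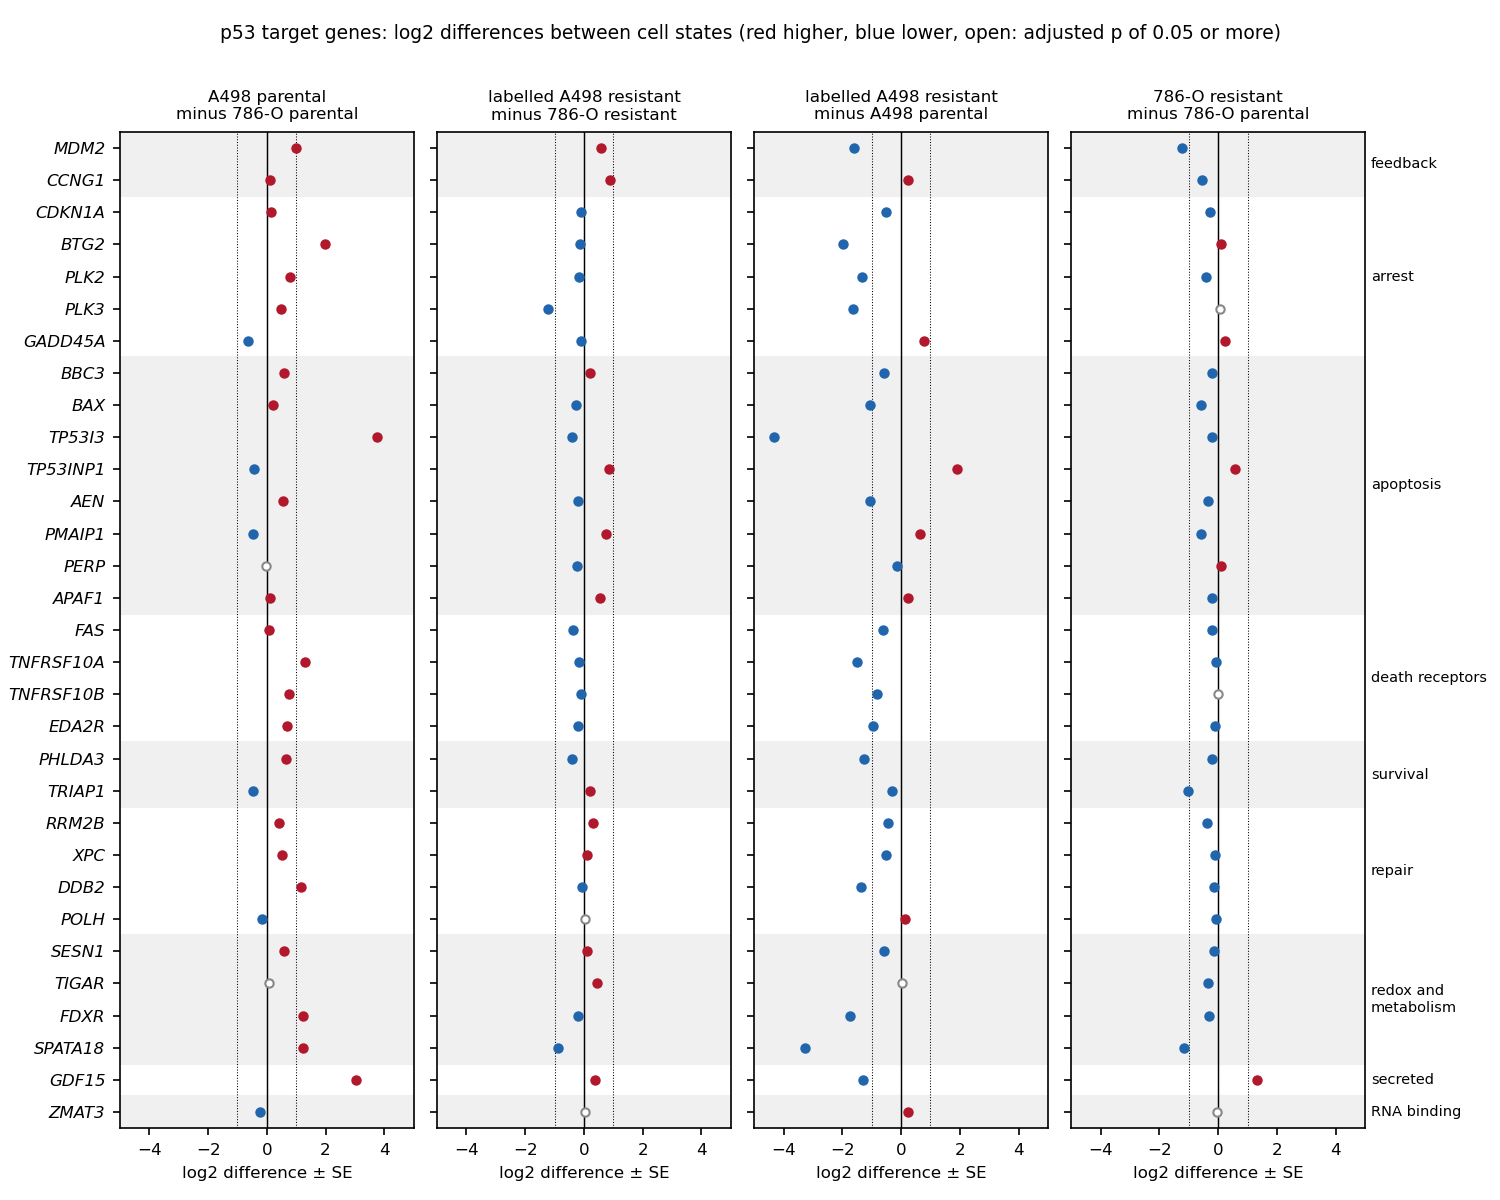
Log2 difference ± SE of each member in the 4 comparisons of cell states, with dotted lines at 2-fold. The first panel shows 23 members higher in A498 parental cells, and the third shows 23 members lower in the libraries labelled A498 resistant than in A498 parental libraries.

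The resistant minus parental changes of the lines share no library. The libraries labelled A498 resistant have a profile that goes against their label. In the A498 change as labelled, resistance and a difference between lines therefore cannot be told apart. As labelled, 18 members fell in both lines, 2 rose in both (TP53INP1 and GADD45A) and 7 moved in opposite directions. Of the 18368 genes tested in both lines, 21.7% fell in both, 24.7% rose in both, 13.9% fell in A498 as labelled and rose in 786-O, and 14.9% did the opposite. Without composition scaling 11 members fell in both lines, since BBC3, DDB2, EDA2R, SESN1, TNFRSF10A, TP53I3 and XPC no longer passed in 786-O. GDF15, BTG2 and PERP fell in A498 as labelled and rose in 786-O, and APAF1, CCNG1, PMAIP1 and POLH rose in A498 as labelled and fell in 786-O. The BTG2 rise did not pass under several alternatives, and the PERP fall and the POLH fall did not pass without composition scaling. The interaction over all 36 libraries tested whether the changes differed. The A498 change as labelled lay below the 786-O change for 21 members and above it for 9, while RRM2B did not pass. RRM2B passed as below with RLE size factors (adjusted p = 0.0324), DESeq2 (0.0204), no filter on low counts (0.000345) and a stricter filter, a mean of at least 5 CPM (0.00454). Of all 20752 genes tested 80.4% passed, 40.6% above and 39.8% below. At least 2-fold below were 9 members (20.3% of all genes), and TP53INP1 and PMAIP1 were at least 2-fold above (13.7% of all genes).

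**Figure D3:**
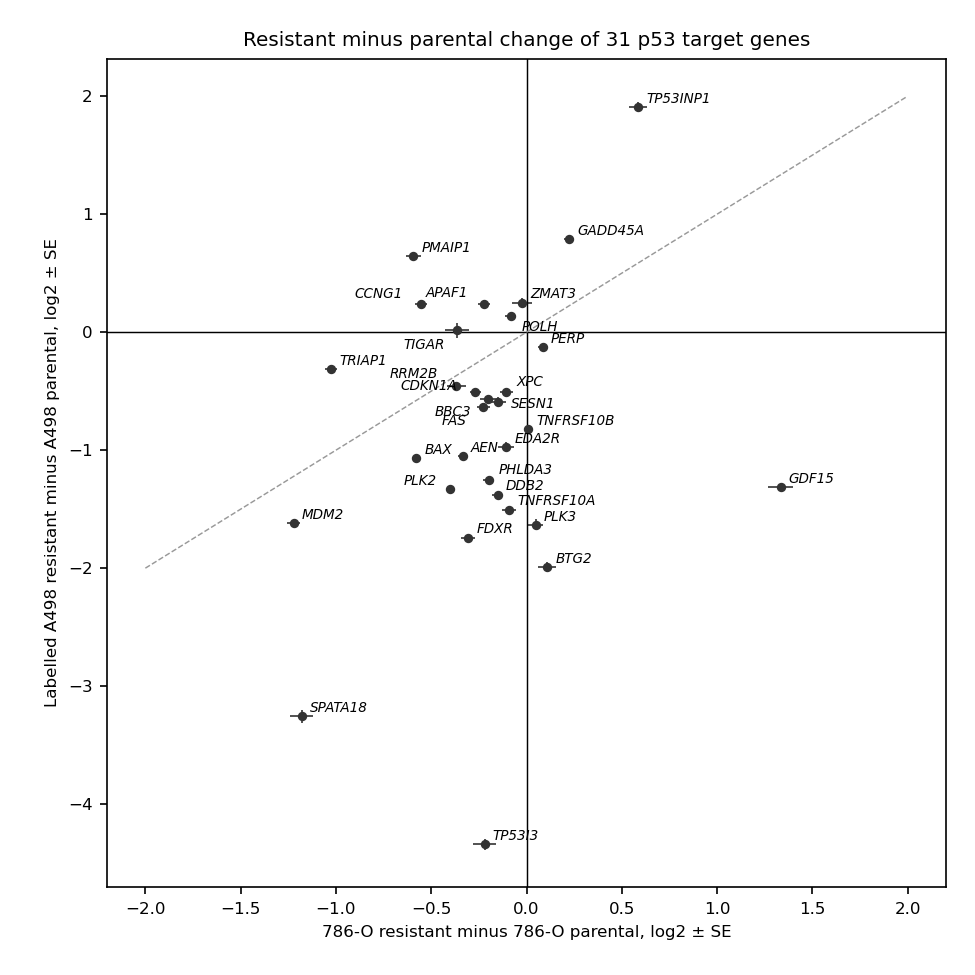
Resistant minus parental log2 change ± SE of the 31 members in 786-O (x axis) and in A498 as labelled (y axis), with equal change on the dashed line. TP53I3 and SPATA18 lie lowest at -4.34 and -3.26 on the y axis, and GDF15 stands alone at the lower right, at 1.33 in 786-O and -1.31 in A498 as labelled.

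In the gene accounts that follow, 3 values in a row are the lowest, median and highest of the 9 libraries of a state, and coordinates are those of GENCODE release 29 on GRCh38. All members are annotated as protein coding. The feedback genes come first. MDM2 (ENSG00000135679.25; chr12:68808176-68850686, plus strand), the ligase that marks p53 for degradation, had 38.4, 42.9 and 44.4 CPM in the set labelled A498 resistant, 117, 121 and 138 CPM in A498 parental, 24.6, 27.4 and 32.1 CPM in 786-O resistant and 53.4, 59.0 and 70.2 CPM in parental 786-O libraries. No 2 of the 4 states overlapped, with A498 parental libraries highest and 786-O resistant libraries lowest. Between the parental lines MDM2 had a log2 difference of 1.01 ± 0.028 (SE; adjusted p = 9.22e-25), and between the resistant sets one of 0.59 ± 0.035. MDM2 fell by 1.62 ± 0.026 (SE; adjusted p = 1.99e-43) on the log2 scale in A498 as labelled and fell by 1.22 ± 0.035 (SE; adjusted p = 3.36e-24) in 786-O. CCNG1, which codes for cyclin G1, a partner of a phosphatase that acts on MDM2, averaged 156 ± 4.00 CPM in the set labelled A498 resistant, 125 ± 3.61 in A498 parental, 83.1 ± 7.61 in 786-O resistant and 113 ± 6.01 in parental 786-O libraries (SD, n = 9 each). All libraries labelled A498 resistant were above, and all 786-O resistant libraries below, those of the other states. Its log2 difference was 0.89 ± 0.029 (SE; adjusted p = 6.65e-23) between the resistant sets, and its change was 0.24 ± 0.022 in A498 as labelled and -0.55 ± 0.03 in 786-O, both past the threshold.

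Genes of cell cycle arrest follow. CDKN1A (ENSG00000124762.13; chr6:36676460-36687339, plus strand), which codes for the cyclin-dependent kinase inhibitor p21, had 223, 232 and 241 CPM in the set labelled A498 resistant, 294, 318 and 327 CPM in A498 parental, 226, 249 and 265 CPM in 786-O resistant and 258, 272 and 303 CPM in parental 786-O libraries. The 2 A498 states did not overlap, and the 786-O states did. CDKN1A fell by 0.51 ± 0.023 (SE; adjusted p = 1.41e-25) in A498 as labelled and fell by 0.27 ± 0.028 (SE; adjusted p = 2.05e-10) in 786-O on the log2 scale. Its log2 difference was 0.15 ± 0.029 between the parental lines and -0.11 ± 0.024 between the resistant sets, both past the threshold. BTG2 (ENSG00000159388.6; chr1:203305491-203309602, plus strand), an antiproliferative partner of the mRNA deadenylation machinery, had 7.80, 8.20 and 8.92 CPM in the set labelled A498 resistant, 28.6, 30.8 and 36.7 CPM in A498 parental, 8.45, 8.95 and 9.84 CPM in 786-O resistant and 6.69, 7.82 and 9.69 CPM in parental 786-O libraries. A498 parental libraries were above all others, and the other 3 states overlapped. The log2 difference was 1.99 ± 0.04 (SE; adjusted p = 1.12e-36) between the parental lines and -1.99 ± 0.04 (SE; adjusted p = 9.87e-40) in A498 as labelled, against 0.11 ± 0.048 (SE; adjusted p = 0.0375) in 786-O. The 786-O value did not pass with DESeq2 (adjusted p = 0.053), with no filter on low counts (0.134), or in the fit of all 36 libraries (0.0599). It was also lost without resistant atezolizumab replicate 1, avelumab replicate 2 or 3 or durvalumab replicate 1, and without parental atezolizumab replicate 2 or 3, avelumab replicate 2 or durvalumab replicate 3 (adjusted p up to 0.113).

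PLK2 (ENSG00000145632.15; chr5:58453982-58460260, minus strand), whose promoter stretch with a half-site is shown above, had 236, 252 and 264 CPM in the set labelled A498 resistant, 552, 605 and 639 CPM in A498 parental, 258, 282 and 298 CPM in 786-O resistant and 323, 339 and 354 CPM in parental 786-O libraries. Every A498 parental library was above the rest, and resistant and parental libraries did not overlap in either line as labelled. It fell by 1.33 ± 0.022 (SE; adjusted p = 1.74e-43) on the log2 scale in A498 as labelled and fell by 0.40 ± 0.023 (SE; adjusted p = 6.70e-17) in 786-O. PLK3 (ENSG00000173846.13; chr1:44800225-44805990, plus strand), a stress-responsive kinase of the same family, had 6.19, 7.00 and 8.01 CPM in the set labelled A498 resistant, 18.7, 20.97 and 22.9 CPM in A498 parental, 13.9, 16.3 and 18.7 CPM in 786-O resistant and 12.9, 14.3 and 15.6 CPM in parental 786-O libraries. The libraries labelled A498 resistant lay below all 27 others. PLK3 was the member that differed most between the resistant sets, at a log2 difference of -1.22 ± 0.047 (SE; adjusted p = 6.99e-21), and it fell by 1.63 ± 0.047 (SE; adjusted p = 3.01e-33) in A498 as labelled, while its value in 786-O, 0.05 ± 0.04 (SE; adjusted p = 0.269), did not pass. GADD45A, which is induced by DNA damage and growth arrest, was the arrest gene that rose in both lines as labelled. It averaged 82.6 ± 3.17 CPM in the set labelled A498 resistant, 45.1 ± 2.88 in A498 parental, 86.7 ± 6.19 in 786-O resistant and 68.8 ± 4.93 in parental 786-O libraries (SD, n = 9 each). The rise was 0.79 ± 0.026 in A498 as labelled and 0.22 ± 0.028 in 786-O on the log2 scale.

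The apoptosis genes begin with the member that differed most. TP53I3 (ENSG00000115129.14; chr2:24077433-24085861, minus strand), a quinone oxidoreductase linked to oxidative stress in p53-dependent death, had 2.82, 3.39 and 4.29 CPM in the set labelled A498 resistant, 57.6, 62.8 and 69.7 CPM in A498 parental, 3.92, 4.33 and 4.77 CPM in 786-O resistant and 3.82, 4.82 and 5.30 CPM in parental 786-O libraries. A498 parental libraries were far above all others, and the other 3 states overlapped in part. The log2 difference was 3.74 ± 0.039 (SE; adjusted p = 2.52e-47) between the parental lines and -4.34 ± 0.045 (SE; adjusted p = 1.17e-51) in A498 as labelled, the largest of any member in both comparisons. In 786-O it was -0.22 ± 0.06 (SE; adjusted p = 0.0013). BAX (ENSG00000087088.20; chr19:48954815-48961798, plus strand), which forms pores in the outer mitochondrial membrane, had 75.1, 78.0 and 80.5 CPM in the set labelled A498 resistant, 146, 154 and 161 CPM in A498 parental, 90.7, 93.0 and 95.8 CPM in 786-O resistant and 125, 128 and 134 CPM in parental 786-O libraries. All 4 states were apart, with the libraries labelled A498 resistant lowest. BAX fell by 1.06 ± 0.022 (SE; adjusted p = 9.35e-39) on the log2 scale in A498 as labelled and fell by 0.58 ± 0.021 (SE; adjusted p = 5.86e-22) in 786-O.

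BBC3 (ENSG00000105327.17; chr19:47220822-47232766, minus strand), which codes for the BH3-only protein PUMA, had 15.7, 16.1 and 16.4 CPM in the set labelled A498 resistant, 20.3, 22.6 and 24.1 CPM in A498 parental, 10.97, 13.9 and 15.04 CPM in 786-O resistant and 12.7, 14.8 and 15.5 CPM in parental 786-O libraries. All A498 parental libraries were above the rest, and the 786-O states overlapped. The log2 change was -0.56 ± 0.034 (SE; adjusted p = 3.87e-20) in A498 as labelled and -0.20 ± 0.046 (SE; adjusted p = 0.000186) in 786-O, and the parental lines differed by 0.59 ± 0.036. PMAIP1, which codes for NOXA, another BH3-only protein, averaged 60.03 ± 2.88 CPM in the set labelled A498 resistant, 36.2 ± 2.597 in A498 parental, 34.7 ± 3.15 in 786-O resistant and 48.5 ± 3.57 in parental 786-O libraries (SD, n = 9 each). All libraries labelled A498 resistant were above the rest. PMAIP1 rose by 0.65 ± 0.03 (SE; adjusted p = 2.69e-24) in A498 as labelled and fell by 0.59 ± 0.039 (SE; adjusted p = 1.62e-13) in 786-O on the log2 scale.

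AEN (ENSG00000181026.15; chr15:88621296-88632282, plus strand), an apoptosis-enhancing nuclease, had 56.7, 59.8 and 62.0 CPM in the set labelled A498 resistant, 113, 116 and 119 CPM in A498 parental, 63.0, 66.5 and 70.2 CPM in 786-O resistant and 73.5, 78.4 and 84.3 CPM in parental 786-O libraries. The A498 states did not overlap, nor did the 786-O states, and AEN fell by 1.05 ± 0.023 (SE; adjusted p = 4.60e-38) in A498 as labelled and fell by 0.34 ± 0.025 (SE; adjusted p = 5.44e-14) in 786-O on the log2 scale. TP53INP1 (ENSG00000164938.14; chr8:94925972-94949411, minus strand), a nuclear stress protein that takes part in p53 activation and autophagy, had 26.8, 31.2 and 35.1 CPM in the set labelled A498 resistant, 7.29, 7.75 and 8.54 CPM in A498 parental, 14.6, 16.8 and 20.9 CPM in 786-O resistant and 8.03, 10.4 and 11.6 CPM in parental 786-O libraries. The libraries labelled A498 resistant were the highest of all, and resistant and parental libraries were apart in both lines as labelled. TP53INP1 was the only member to rise at least 2-fold in A498 as labelled, at 1.91 ± 0.043 (SE; adjusted p = 5.55e-37) on the log2 scale, and it also rose in 786-O, at 0.58 ± 0.047 (SE; adjusted p = 5.53e-13). APAF1, the scaffold of the apoptosome, averaged 34.6 ± 1.51 CPM in the set labelled A498 resistant, 27.6 ± 1.35 in A498 parental, 23.4 ± 1.92 in 786-O resistant and 25.3 ± 1.33 in parental 786-O libraries (SD, n = 9 each). It was higher in the libraries labelled A498 resistant than in all others. PERP, a membrane protein of desmosomes and apoptosis, averaged 91.1 ± 2.798 CPM in the set labelled A498 resistant, 93.6 ± 2.15 in A498 parental, 106 ± 5.65 in 786-O resistant and 92.7 ± 3.06 in parental 786-O libraries (SD, n = 9 each), and the log2 values of its changes were -0.12 ± 0.023 in A498 as labelled and 0.09 ± 0.026 in 786-O, both past the threshold. Without composition scaling the A498 value was -0.04 and did not pass (adjusted p = 0.0734).

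Of the death receptors on the list, TNFRSF10A, TNFRSF10B and EDA2R were higher in A498 parental than in 786-O parental cells, where 44.3% of all genes were. In the set labelled A498 resistant all 4 were below their level in A498 parental libraries (44% of all genes) and in 786-O resistant libraries (35.2%). TNFRSF10A (ENSG00000104689.10; chr8:23190452-23225126, minus strand), the TRAIL receptor DR4, had 14.6, 15.8 and 16.4 CPM in the set labelled A498 resistant, 38.8, 41.6 and 43.7 CPM in A498 parental, 15.2, 16.7 and 18.2 CPM in 786-O resistant and 14.9, 16.5 and 18.5 CPM in parental 786-O libraries. A498 parental libraries were above all others, and the other 3 states overlapped. The log2 difference was 1.28 ± 0.029 (SE; adjusted p = 6.21e-35) between the parental lines and -1.50 ± 0.032 (SE; adjusted p = 1.14e-38) in A498 as labelled. Its value in 786-O, -0.09 ± 0.037 (SE; adjusted p = 0.0245), turned to 0.02 without composition scaling. That value did not pass without resistant durvalumab replicate 1, resistant atezolizumab replicate 3 or parental durvalumab replicate 2 (adjusted p up to 0.066). Antisense genes overlap 16.6% of the exonic length of TNFRSF10A. The strand setting of the counting is not named, so the part of that overlap in its counts is not known. TNFRSF10B, the TRAIL receptor DR5, averaged 138 ± 2.05 CPM in the set labelled A498 resistant, 231 ± 7.73 in A498 parental, 145 ± 2.23 in 786-O resistant and 133 ± 3.70 in parental 786-O libraries (SD, n = 9 each), and its 786-O value of 0.01 ± 0.021 (SE; adjusted p = 0.697) did not pass. FAS, the receptor of FAS ligand, had its highest mean in A498 parental libraries at 60.8 ± 2.24 CPM and its lowest in those labelled A498 resistant at 41.7 ± 2.42 CPM, and it changed by -0.63 ± 0.03 in A498 as labelled and by -0.23 ± 0.035 in 786-O. Between the parental lines FAS libraries overlapped, and its log2 difference of 0.06 ± 0.025 (SE; adjusted p = 0.0299) did not pass in the fit of all 36 libraries (adjusted p = 0.478) or under durvalumab or atezolizumab alone. It was also lost without A498 avelumab replicate 1, durvalumab replicate 2 or atezolizumab replicate 2, and without 786-O durvalumab replicate 3 or atezolizumab replicate 2 (adjusted p up to 0.0669). EDA2R, a receptor of ectodysplasin A2, changed by -0.97 ± 0.041 in A498 as labelled and by -0.11 ± 0.04 in 786-O on the log2 scale, and the 786-O value was 0.0 without composition scaling and did not pass without parental atezolizumab replicate 1 (adjusted p = 0.0614).

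The 2 genes that act on survival signals differed. PHLDA3 (ENSG00000174307.7; chr1:201464383-201469237, minus strand), which holds AKT away from the membrane, had 76.4, 82.6 and 85.7 CPM in the set labelled A498 resistant, 178, 185 and 190.4 CPM in A498 parental, 91.9, 107 and 114 CPM in 786-O resistant and 105, 115 and 119.7 CPM in parental 786-O libraries. A498 parental libraries were above and those labelled A498 resistant below all others. It fell by 1.25 ± 0.023 (SE; adjusted p = 5.30e-41) on the log2 scale in A498 as labelled and fell by 0.20 ± 0.03 (SE; adjusted p = 5.44e-07) in 786-O, with 19.1% of its exonic length shared with a gene on the same strand. TRIAP1 (ENSG00000170855.4; chr12:120443961-120446412, minus strand), a small inhibitor of apoptosome formation with an annotated pseudogene copy, had 21.1, 23.8 and 25.1 CPM in the set labelled A498 resistant, 25.6, 27.3 and 29.4 CPM in A498 parental, 18.7, 19.8 and 21.8 CPM in 786-O resistant and 35.8, 37.5 and 39.5 CPM in parental 786-O libraries. Here 786-O parental libraries were above all others. TRIAP1 fell by 0.32 ± 0.033 (SE; adjusted p = 5.72e-12) in A498 as labelled and fell by 1.03 ± 0.03 (SE; adjusted p = 8.20e-25) in 786-O on the log2 scale.

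Of the repair genes, DDB2 (ENSG00000134574.11; chr11:47214465-47239240, plus strand), which recognizes ultraviolet damage and whose promoter holds the full element shown above, had 44.2, 46.3 and 48.4 CPM in the set labelled A498 resistant, 109.7, 113 and 116 CPM in A498 parental, 43.8, 47.0 and 50.4 CPM in 786-O resistant and 45.2, 48.8 and 52.0 CPM in parental 786-O libraries. Each A498 parental library was above all others, and the remaining 3 states overlapped. DDB2 was higher between the parental lines, by 1.18 ± 0.024 (SE; adjusted p = 1.42e-36), and fell by 1.38 ± 0.023 (SE; adjusted p = 1.12e-42) in A498 as labelled and fell by 0.15 ± 0.03 (SE; adjusted p = 3.03e-05) in 786-O on the log2 scale. XPC, its partner in damage recognition, averaged 30.98 ± 1.46 CPM in the set labelled A498 resistant, 41.5 ± 1.97 in A498 parental, 28.2 ± 1.55 in 786-O resistant and 28.1 ± 2.00 in parental 786-O libraries (SD, n = 9 each), and 30.4% of its exonic length overlaps antisense genes. RRM2B, a subunit of ribonucleotide reductase that supplies nucleotides for repair, fell by 0.46 ± 0.025 in A498 as labelled and fell by 0.37 ± 0.049 in 786-O. POLH, a polymerase that copies past lesions and has a pseudogene copy, stayed between 38.4 and 50.4 CPM in all libraries.

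Among the redox and metabolism genes, FDXR (ENSG00000161513.12; chr17:74862497-74873031, minus strand), the mitochondrial ferredoxin reductase, had 18.5, 19.9 and 21.4 CPM in the set labelled A498 resistant, 54.1, 62.2 and 72.3 CPM in A498 parental, 19.6, 22.7 and 25.0 CPM in 786-O resistant and 24.4, 25.3 and 28.7 CPM in parental 786-O libraries. A498 parental libraries were above all others. The log2 difference was 1.25 ± 0.03 (SE; adjusted p = 7.87e-32) between the parental lines, -1.74 ± 0.031 (SE; adjusted p = 8.25e-42) in A498 as labelled and -0.30 ± 0.036 (SE; adjusted p = 3.63e-09) in 786-O. SPATA18 (ENSG00000163071.11; chr4:52051331-52097292, plus strand), which takes part in the quality control of mitochondria, had 1.99, 2.605 and 3.02 CPM in the set labelled A498 resistant, 22.0, 22.8 and 24.1 CPM in A498 parental, 4.11, 4.56 and 5.14 CPM in 786-O resistant and 7.78, 9.51 and 11.2 CPM in parental 786-O libraries. No 2 states overlapped. SPATA18 fell by 3.26 ± 0.051 (SE; adjusted p = 5.20e-44) in A498 as labelled and fell by 1.18 ± 0.06 (SE; adjusted p = 3.33e-18) in 786-O on the log2 scale, and its log2 difference between the resistant sets was -0.87 ± 0.071 (SE; adjusted p = 1.03e-12). SESN1, a sestrin that restrains mTORC1, averaged 9.88 ± 0.634 CPM in the set labelled A498 resistant, 14.0 ± 0.807 in A498 parental, 8.89 ± 0.693 in 786-O resistant and 9.14 ± 0.37 in parental 786-O libraries (SD, n = 9 each). TIGAR, a phosphatase that lowers glycolysis, averaged 4.73 ± 0.278 CPM in the set labelled A498 resistant, 4.39 ± 0.212 in A498 parental, 3.42 ± 0.286 in 786-O resistant and 4.08 ± 0.298 in parental 786-O libraries (SD, n = 9 each), with 45.6% of its exonic length shared with neighbouring genes.

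GDF15 (ENSG00000130513.6; chr19:18374731-18389176, plus strand), a secreted stress cytokine of the TGF-beta superfamily, had 185, 198 and 212 CPM in the set labelled A498 resistant, 403, 474 and 512 CPM in A498 parental, 133, 149 and 164 CPM in 786-O resistant and 47.8, 52.6 and 70.9 CPM in parental 786-O libraries. No 2 states overlapped, and the order of the 786-O states was opposite to that of the A498 states. GDF15 was higher between the parental lines, by 3.03 ± 0.063 (SE; adjusted p = 6.25e-15), and between the resistant sets, by 0.36 ± 0.031 (SE; adjusted p = 6.14e-12). On the log2 scale it changed by -1.31 ± 0.026 (SE; adjusted p = 9.38e-37) in A498 as labelled and by 1.33 ± 0.063 (SE; adjusted p = 5.51e-11) in 786-O, and the difference between the changes was -2.63 ± 0.071 (SE; adjusted p = 1.85e-22). ZMAT3, a zinc finger protein that binds RNA, stayed between 23.3 and 41.7 CPM in all libraries.

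Under each antibody alone, the differences between states held their sign for most members. Between the parental lines, 25 of the 29 members called on average passed with 1 sign under all 3 antibodies, as did 80.7% of all genes called on average. For the resistant sets the count was 17 of 29 (53.2% of all genes called), for the A498 change as labelled it was 29 of 30 (80.3%), and for the 786-O change it was 16 of 28 (71.4%). Of those 28, 24 had 1 sign under all antibodies. The share that held 1 sign was not computed over all genes. Of all genes tested, the shares that passed under avelumab, durvalumab and atezolizumab were 79.5%, 79.4% and 78.3% between the parental lines and 49%, 48.9% and 54.5% between the resistant sets. They were 80.4%, 79.7% and 79.1% for the A498 change as labelled and 73.1%, 71.2% and 71.9% for the 786-O change.

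The genes that act on p53 and 2 further lists set the members beside their pathway. MDM4, the relative of MDM2 that binds p53 without degrading it, averaged 10.6 ± 1.77 CPM in the set labelled A498 resistant, 10.5 ± 0.978 in A498 parental, 6.02 ± 0.42 in 786-O resistant and 7.33 ± 0.801 in parental 786-O libraries (SD, n = 9 each), with a change of -0.08 ± 0.093 (SE; adjusted p = 0.421) in A498 as labelled, which did not pass, and of -0.39 ± 0.058 (SE; adjusted p = 2.79e-07) in 786-O. CDKN2A, whose product ARF blocks MDM2, had no count in either set of parental libraries and at most 0.089 CPM in any library.

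Of 28 regulators and partners of p53, 12 were higher and 14 lower of 27 tested between the parental lines, against 44.3% higher and 42.9% lower of all genes, and 13 and 6 of 26 between the resistant sets, against 33.8% and 35.2%. In A498 as labelled 9 rose and 15 fell of 27 (44.2% and 44% of all genes), and in 786-O 8 rose and 15 fell of 26 (43.6% and 40.2%). Their median log2 difference was -0.14 between the parental lines, 0.08 between the resistant sets, -0.13 in A498 as labelled and -0.20 in 786-O. Named by size of difference between the parental lines were TP73, a transcription factor that shares many targets with p53, at -2.48 ± 0.11, RPL11, a ribosomal protein that binds MDM2, at -1.05 ± 0.021, and PPP1R13L, an inhibitor of p53, at 0.98 ± 0.026. Between the resistant sets PPM1D, a phosphatase that acts on p53, differed by 0.56 ± 0.038 and the ubiquitin ligase RCHY1 by 0.54 ± 0.051. In A498 as labelled the largest changes were 3.41 ± 0.1 for TP73, 1.08 ± 0.086 for the damage kinase ATM, 0.77 ± 0.032 for the deacetylase SIRT1 and -0.71 ± 0.075 for the kinase HIPK2. In 786-O they were -1.19 ± 0.042 for RCHY1, 1.14 ± 0.063 for TP73, -0.93 ± 0.035 for the checkpoint kinase CHEK2 and -0.89 ± 0.03 for RPL5, another ribosomal protein that binds MDM2.

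Of 32 other p53 targets, 18 were higher and 10 lower of 30 tested between the parental lines (44.3% and 42.9% of all genes), and 7 and 17 of 29 between the resistant sets (33.8% and 35.2%). Of 30 in A498 as labelled, 6 rose and 24 fell (44.2% and 44% of all genes), with a median log2 difference of -0.55. In 786-O 10 rose and 16 fell of 29 (43.6% and 40.2% of all genes), with a median of -0.10. SFN, the cell cycle inhibitor 14-3-3 sigma, averaged 1.29 ± 0.265 CPM in the set labelled A498 resistant, 138 ± 4.45 in A498 parental, 2.51 ± 0.445 in 786-O resistant and 3.08 ± 0.456 in parental 786-O libraries (SD, n = 9 each). Its log2 difference was 5.45 ± 0.039 (SE; adjusted p = 3.83e-48) between the parental lines, -0.97 ± 0.12 (SE; adjusted p = 6.58e-09) between the resistant sets and -6.82 ± 0.047 (SE; adjusted p = 1.49e-58) in A498 as labelled. Next between the parental lines came TLR3, a sensor of double-stranded RNA, at 2.65 ± 0.037, NINJ1, which takes part in the rupture of dying cells, at 2.55 ± 0.03, and TRIM22, an antiviral protein, at 2.30 ± 0.031. Between the resistant sets they were IGFBP3, a binding protein of insulin-like growth factors, at -0.91 ± 0.027, TLR3 at 0.86 ± 0.051 and TRIM22 at 0.69 ± 0.029. In A498 as labelled CDIP1, a proapoptotic target, changed by -3.31 ± 0.031, NINJ1 by -2.01 ± 0.026 and THBS1, an inhibitor of angiogenesis, by 2.099 ± 0.031. In 786-O the largest changes were -2.01 ± 0.038 for CDIP1, 1.56 ± 0.035 for IGFBP3, 1.19 ± 0.032 for NINJ1 and 1.04 ± 0.052 for TLR3.

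Of 25 cell cycle genes that p53 lowers through p21 and the DREAM complex, 1 was higher and 22 were lower in A498 than in 786-O parental cells (44.3% and 42.9% of all genes), and 14 were higher and 8 lower between the resistant sets (33.8% and 35.2%). As labelled, A498 had 15 that rose and 9 that fell (44.2% and 44% of all genes), with a median log2 difference of 0.25. In 786-O 4 rose and 20 fell (43.6% and 40.2% of all genes), with a median of -0.39. Between the parental lines the largest differences were those of the anaphase activator CDC20 at -0.96 ± 0.021, the phosphatase CDC25C at -0.96 ± 0.038, the kinesin KIF2C at -0.94 ± 0.021 and the checkpoint kinase CHEK1 at -0.89 ± 0.031. Between the resistant sets they were 0.51 ± 0.027 for the cytokinesis factor ECT2, 0.38 ± 0.047 for CDC25C, -0.38 ± 0.026 for CDC20 and 0.33 ± 0.031 for CHEK1. In A498 as labelled CDC25C changed by 1.01 ± 0.043, the cyclins CCNB1 by -0.92 ± 0.024 and CCNB2 by 0.86 ± 0.024, and the replication helicase subunit MCM5 by -0.85 ± 0.024. In 786-O the transcription factor MYBL2 changed by -0.88 ± 0.022, CDC20 by -0.79 ± 0.023, MCM5 by -0.70 ± 0.023 and the kinesin KIF23 by 0.65 ± 0.023.

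**Figure D4:**
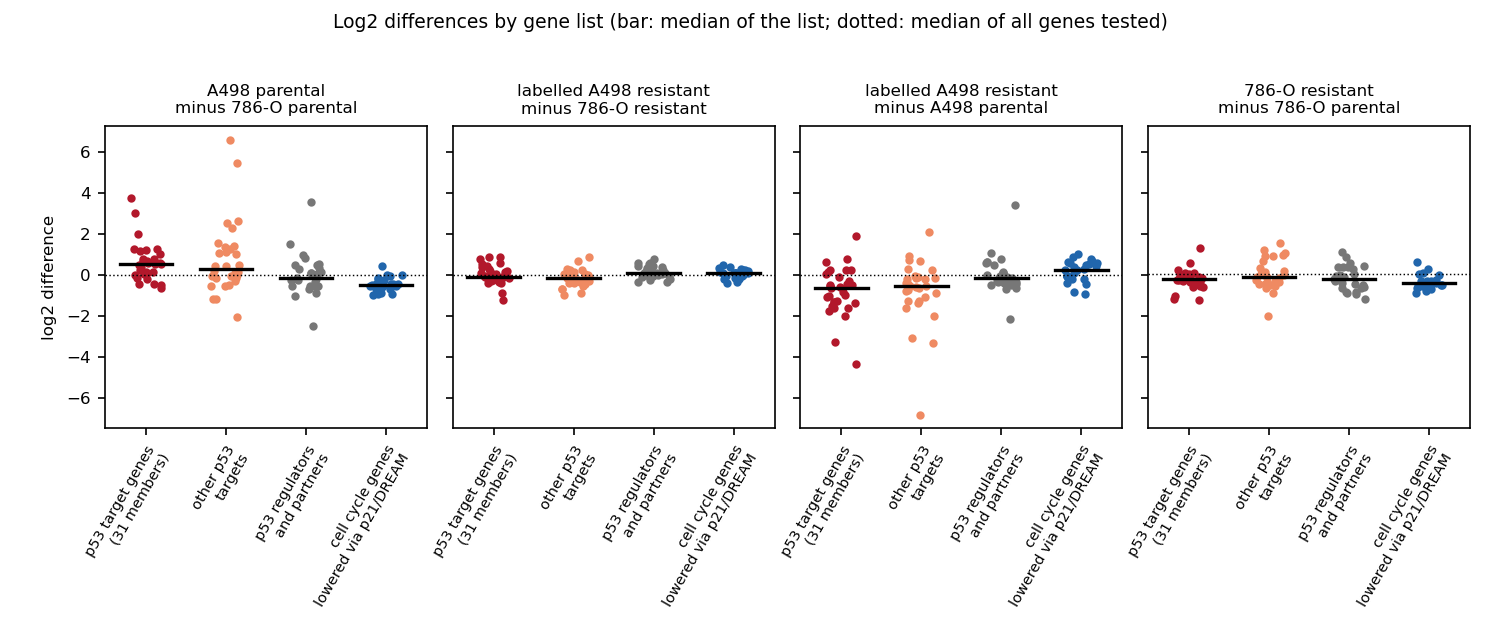
Log2 differences of the p53 target genes and of 3 other lists in the 4 comparisons of cell states; each point is a gene tested, the bar is the list's median and the dotted line the median of all genes tested. In A498 as labelled the medians were -0.63 for the members, -0.55 for other p53 targets, -0.13 for p53 regulators and 0.25 for the cell cycle genes.

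Antibodies were compared within each cell state, hence within 1 batch label, by a test with 2 degrees of freedom over 9 libraries. No member passed in the libraries labelled A498 resistant, where 0.0114% of all genes passed. At an unadjusted p under 0.05 there were 2 of 31 members (6.68% of all genes), and DESeq2 also called none. The members of lowest p there were PLK2, with 258, 263 and 251 CPM under avelumab, 236, 236 and 239 CPM under durvalumab and 264, 252 and 261 CPM under atezolizumab (adjusted p = 0.504), and GADD45A, with 79.9, 78.3 and 80.8 CPM under avelumab, 84.1, 79.0 and 83.9 CPM under durvalumab and 85.8, 84.2 and 87.2 CPM under atezolizumab (adjusted p = 0.733). Neither passed. In any state, no pair of antibodies differed by more than 0.382 on the log2 scale for any member.

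In A498 parental cells 4 of 31 members passed, against 3.83% of all genes. GDF15 had 479, 512 and 474 CPM under avelumab, 497, 504 and 460.1 CPM under durvalumab and 440.3, 403 and 409.9 CPM under atezolizumab. Both avelumab and durvalumab libraries were above all atezolizumab libraries, with log2 differences from atezolizumab of 0.22 ± 0.041 and 0.21 ± 0.041 (SE; adjusted p of the test = 0.00324). PLK2 had 639, 598 and 605 CPM under avelumab, 611, 632 and 605 CPM under durvalumab and 552, 569.6 and 554 CPM under atezolizumab, likewise above atezolizumab without overlap, by 0.13 ± 0.035 and 0.13 ± 0.035 (adjusted p = 0.0295). FDXR went the other way, with 62.4, 54.1 and 60.4 CPM under avelumab, 60.5, 62.2 and 57.5 CPM under durvalumab and 69.6, 68.2 and 72.3 CPM under atezolizumab. It was below atezolizumab without overlap, at -0.26 ± 0.046 and -0.23 ± 0.046 on the log2 scale (adjusted p = 0.00168). BTG2 had 30.8, 30.7 and 28.7 CPM under avelumab, 28.7, 31.4 and 28.6 CPM under durvalumab and 34.4, 31.6 and 36.7 CPM under atezolizumab, at -0.19 ± 0.055 and -0.23 ± 0.054 relative to atezolizumab (adjusted p = 0.0216). The PLK2 call was lost without atezolizumab replicate 1 or 3, avelumab replicate 1 or 2, or durvalumab replicate 1 or 2, with adjusted p up to 0.207. The BTG2 call was lost without atezolizumab replicate 1 or 3, or durvalumab replicate 1 or 3, with adjusted p up to 0.25. With all 36 libraries in 1 fit, GDF15 (adjusted p = 0.28) and PLK2 (adjusted p = 0.0733) did not pass.

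In 786-O resistant cells GADD45A alone passed, against 0.741% of all genes. It had 80.9, 78.5 and 80.7 CPM under avelumab, 83.96, 89.2 and 85.6 CPM under durvalumab and 94.03, 92.1 and 95.1 CPM under atezolizumab, so that each antibody's libraries stood apart, at -0.25 ± 0.045 for avelumab and -0.15 ± 0.045 for durvalumab relative to atezolizumab on the log2 scale (adjusted p = 0.0162). The adjusted p of GADD45A was 0.1 without atezolizumab replicate 1, 0.154 without atezolizumab replicate 3 and 0.11 without avelumab replicate 2. In 786-O parental cells 3 members passed, against 3.52% of all genes, and all were highest under atezolizumab. BTG2 had 7.10, 6.73 and 6.95 CPM under avelumab, 7.87, 7.82 and 6.69 CPM under durvalumab and 9.69, 8.33 and 8.68 CPM under atezolizumab (adjusted p = 0.0187). TNFRSF10A had 16.7, 16.1 and 16.5 CPM under avelumab, 15.4, 16.2 and 14.9 CPM under durvalumab and 18.5, 18.3 and 17.7 CPM under atezolizumab (adjusted p = 0.0302). Neither gene's avelumab libraries reached its atezolizumab libraries. FAS had 55.1, 53.4 and 52.5 CPM under avelumab, 58.1, 60.03 and 56.1 CPM under durvalumab and 63.5, 57.5 and 58.9 CPM under atezolizumab (adjusted p = 0.0424), with the durvalumab and atezolizumab libraries overlapping. Each of these 3 calls was lost when atezolizumab replicate 1 or 3, or avelumab replicate 2, was left out, with adjusted p between 0.0578 and 0.159. The FAS call was also lost in the fit of all 36 libraries and without composition scaling (adjusted p = 0.183 and 0.0601), and without avelumab replicate 3 or durvalumab replicate 2 (adjusted p = 0.136 and 0.0739), and the TNFRSF10A call without atezolizumab replicate 2 or durvalumab replicate 2 or 3 (adjusted p = 0.108, 0.0504 and 0.0717).

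**Figure D5:**
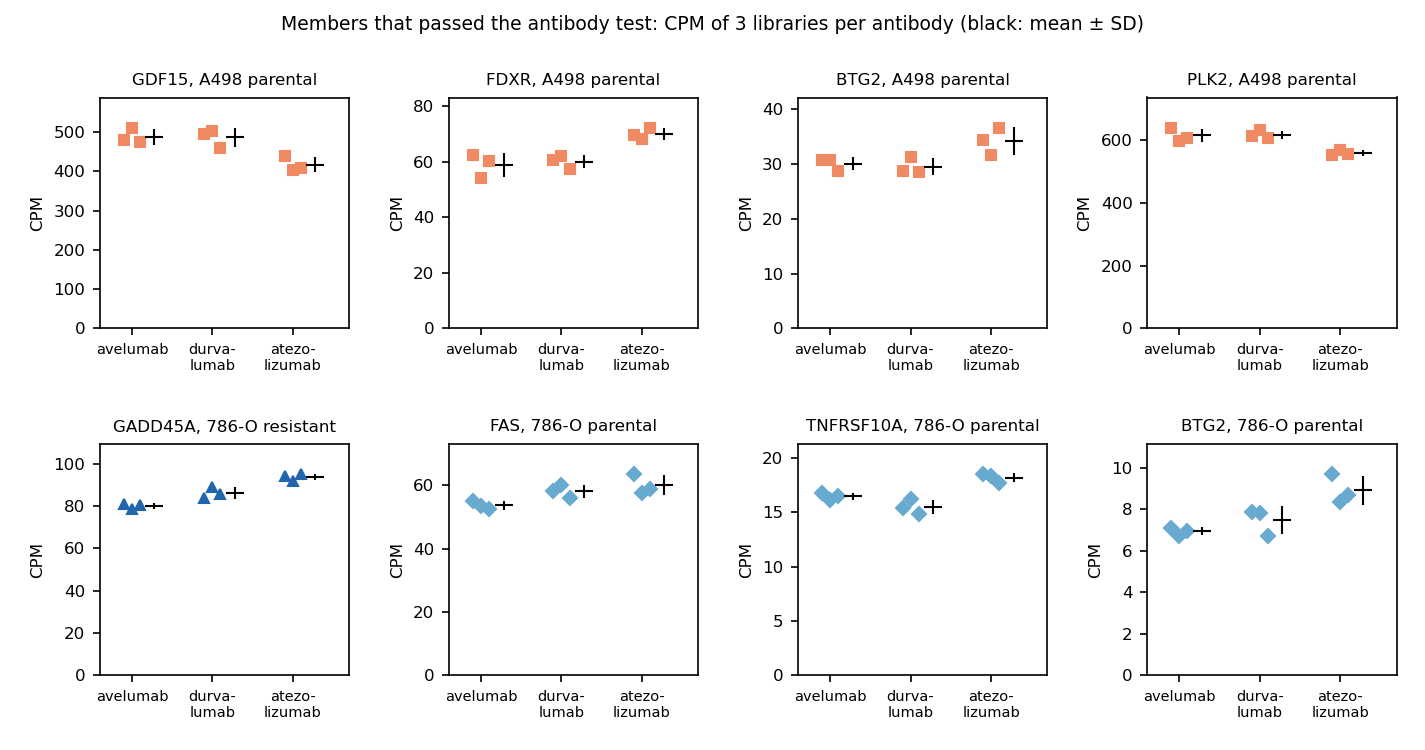
CPM of the members that passed the antibody test within a state, for 3 libraries per antibody (coloured points) with mean ± SD (black). GDF15 and PLK2 in A498 parental cells have their lowest mean under atezolizumab, and the other members shown have their highest there.

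A test with 6 degrees of freedom over all 36 libraries asked if the antibodies differed from state to state in another way. PLK2, FDXR, MDM2, TP53INP1 and GADD45A passed, 5 of 31 members against 4.1% of all genes. PLK2 averaged 614 ± 22.0 CPM under avelumab, 616 ± 13.9 under durvalumab and 558 ± 9.73 under atezolizumab in A498 parental cells (SD, n = 3 each). In 786-O resistant cells it averaged 261 ± 4.07 CPM under avelumab, 286 ± 14.8 under durvalumab and 286 ± 3.31 under atezolizumab (SD, n = 3 each). PLK2 thus had its low mean under atezolizumab in A498 parental cells and under avelumab in 786-O resistant cells. In the test within a state, PLK2 passed in A498 parental cells only. Its adjusted p there was 0.196 in 786-O resistant cells and 0.352 in parental 786-O cells. In the set labelled A498 resistant it was 0.504, with the durvalumab libraries lowest. Without the libraries labelled A498 resistant, a choice made after the data were seen, 3 members passed, and FDXR and TP53INP1 did not (adjusted p = 0.0936 and 0.0529). Over 43 alternatives, among them leaving out each library, the call was lost in 0 for PLK2, 2 for FDXR, 4 for MDM2, 21 for GADD45A and 30 for TP53INP1.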

How the data were processed

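Raw read counts per gene for 36 libraries, deposited by the authors, were used as they stand (a stranded poly-A kit, per the labels' protocols). Per the submitters' processing notes, bcl2fastq 2.19.0, Trimmomatic 0.36.6, HISAT2 2.1.0, featureCounts 1.6.3 and GRCh38 were used; for the annotation release and the strand setting, the sources used here name none. Totals ran from 19994882 to 58122896 counts, and their size limits the precision of low genes. No 2 libraries held identical counts. CPM was computed over each library's total, and exonic lengths and coordinates came from GENCODE release 29.

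Each comparison was fitted on its own libraries with edgeR 4.0.16 in R 4.3.3 (filterByExpr with a minimum count of 10 and a minimum total of 15, TMM scaling, robust quasi-likelihood test), with Benjamini-Hochberg adjustment over all genes tested. State comparisons average the 3 antibodies. The steps were tested on simulated data. Alternatives were DESeq2 1.42.0, RLE or no composition scaling, no filter or a mean of at least 5 CPM, the replicate number as a block, 1 fit over all 36 libraries and leaving out each library. Values per library are given for members with at least a 2-fold difference between states, for CDKN1A, MDM2, GDF15, BAX and BBC3, and for members past the antibody test or of the 2 lowest p where none passed. Other lists name up to 4 genes per comparison with the largest differences, at 1 CPM or more. The members, lists and rules were chosen with earlier results of these data known. Some genes of these lists are not reported here.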

Additional observations from a re-analysis of the deposited data

Results flagged for a closer look

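The change of resistant against parental cells differed between A498 as labelled and 786-O for 30 of the 31 members, by the interaction in edgeR's quasi-likelihood test with Benjamini-Hochberg adjustment, where 80.4% of all genes tested differed. Values are the A498 change minus the 786-O change on the log2 scale, and they rest on libraries whose profile goes against their label. Of the apoptosis genes, TP53I3 stood at -4.108, AEN at -0.699, BAX at -0.471, BBC3 at -0.352 and PERP at -0.197, with TP53INP1 at 1.336, PMAIP1 at 1.253 and APAF1 at 0.478. Of the arrest genes, BTG2 stood at -2.086, PLK3 at -1.668, PLK2 at -0.918 and CDKN1A at -0.23, with GADD45A at 0.576. The feedback genes gave -0.383 for MDM2 and 0.805 for CCNG1. The death receptors were all below 0, at -1.4 for TNFRSF10A, -0.851 for EDA2R, -0.819 for TNFRSF10B and -0.392 for FAS. The survival genes gave -1.04 for PHLDA3 and 0.724 for TRIAP1. Repair genes gave -1.211 for DDB2, -0.39 for XPC and 0.232 for POLH. Redox and metabolism genes gave -2.064 for SPATA18, -1.422 for FDXR, -0.429 for SESN1 and 0.394 for TIGAR. GDF15 stood at -2.631 and ZMAT3 at 0.288.

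In the test of antibody differences by cell state 5 members passed, where 4.1% of all genes tested passed. The adjusted p was 0.001289 for PLK2, 0.01496 for FDXR, 0.01813 for MDM2, 0.04455 for TP53INP1 and 0.04474 for GADD45A. Over 43 alternatives the call was lost in 0 for PLK2, 2 for FDXR, 4 for MDM2, 30 for TP53INP1 and 21 for GADD45A. The calls of TP53INP1 and GADD45A thus depended on the setting.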

How the results depend on the processing

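The number of members past the threshold in each comparison of cell states stayed within 1.5 times under every alternative run, at 26 to 30 when 1 library was left out. Of single values, some small ones changed sign or came to 0.0. Among them were EDA2R (-0.108), XPC (-0.105), TNFRSF10A (-0.091) and POLH (-0.082) in 786-O, which had passed as lower in the main fit. In 786-O without composition scaling, EDA2R came to 0.0, POLH to 0.026, TNFRSF10A to 0.018, XPC to 0.003 and ZMAT3 to 0.084 on the log2 scale. Under the strict filter POLH came to 0.0 and ZMAT3 to 0.058, EDA2R, SESN1, TNFRSF10A and XPC no longer passed, and PLK3 and TNFRSF10B did, as higher (0.13 and 0.091). With that filter 13 members fell in both lines as labelled, against 18 in the main fits. TNFRSF10B came to -0.011 with all 36 libraries in 1 fit, -0.009 with no filter and -0.001 without 786-O parental atezolizumab replicate 2. PERP between the parental lines came to 0.011 with DESeq2 and with RLE size factors, 0.014 without composition scaling and 0.05 under the strict filter, where it passed as higher (adjusted p = 0.0131). Antibody counts moved more. For 786-O resistant cells, 1 member passed, against 2 with DESeq2, 7 with no filter, 4 with the replicate block, 5 in the fit of all 36 libraries and 0 to 7 leaving out 1 library. For 786-O parental cells 3 passed, against 6 with no filter, 1 with the block and 0 to 4 leaving out 1 library. For A498 parental cells 4 passed, against 2 in the fit of all 36 libraries and 2 to 5 leaving out 1 library. By cell state 5 passed, against 8 with DESeq2, 3 without composition scaling, 10 with no filter, 3 without the libraries labelled A498 resistant and 2 to 9 leaving out 1 library. The cause was not tested. Deviations of libraries with the same replicate number correlated at r from -0.257 to 0.332 in the set labelled A498 resistant, -0.23 to 0.148 in A498 parental, -0.133 to 0.185 in 786-O resistant, -0.309 to 0.097 in parental 786-O libraries and -0.437 to 0.417 between states, and those with different numbers at -0.474 to 0.458. Not every pair passed 0.1. Deviations from a mean of 3 libraries are constrained, so the check cannot decide if equal numbers mark shared handling. With the block, PLK2 in A498 parental cells (adjusted p = 0.0595) did not pass. Nor did FAS and TNFRSF10A in 786-O parental cells (adjusted p = 0.0885 and 0.0706). Members past the threshold with the block numbered 29 between parental lines, 28 between resistant sets, 30 in A498 as labelled and 28 in 786-O. Counts over all genes fell under the strict filter, which tests fewer genes, to 10768 between parental lines (17189 without it), 11087 in A498 as labelled (17155), 10264 in 786-O (16232) and 10519 for the difference of changes (16683). Over all genes, antibodies gave 2 calls in the libraries labelled A498 resistant (4 with DESeq2, 50 with no filter, 0 in the fit of all 36), 704 in A498 parental (1099 with no filter, 361 in the fit of all 36), 140 in 786-O resistant (305 with DESeq2, 692 with no filter, 347 with the block, 626 in the fit of all 36), 618 in 786-O parental (1400 with no filter, 300 with the block) and 850 by cell state (1461 with DESeq2, 1933 with no filter).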
